A study of Mus musculus with 7 samples.

Results

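The endocrine hormone receptors examined here are 20 CpG probes, each from a different receptor gene, out of the 382 probes of a custom mouse DNA methylation array. They were chosen by name as the probes of 22 listed receptor genes, and 20 of the 22 names were found, while Gipr and Gnrhr were not analysed here. Of the 20, 3 are glycoprotein hormone receptors (Fshr, Tshr and Lhcgr), 14 are receptors of the secretin family, and 3 are other receptors (Trhr, Mtnr1a and Mtnr1b). Each value is a beta value, the methylated fraction of one CpG position, from 0 for unmethylated to 1 for methylated.

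The array was an Illumina GoldenGate design, which reads the methylated and the unmethylated state of bisulphite-converted DNA in 2 colours. All 7 arrays hold C57BL/6 mouse DNA. The brain arrays are titled A2B5_mas, after a surface ganglioside of glial progenitors, and PSA-NCAM_mas, after the polysialylated adhesion molecule of young neurons. The remaining 5 are titled Met_0, Met_25, Met_50, Met_75 and Met_100 and were taken as control DNA of rising methylation, since their tissue label is DNA. The labels give neither genotype, treatment, age and brain region nor the meaning of the ending mas and how cells were obtained. With 1 array per title there was no replicate spread, and differences between single arrays carry no test. A brain beta value between 0 and 1 can stand for a share of cells, of alleles or of molecules, and these cannot be told apart.

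These receptors carry endocrine and neuropeptide signals into the cell through heterotrimeric G proteins. The glycoprotein hormone receptors bind pituitary hormones through a large outer domain, and the secretin family binds peptide hormones through a smaller one. Both mainly raise cyclic AMP, whereas the thyrotropin-releasing hormone receptor works through phospholipase C and the melatonin receptors mainly lower cyclic AMP. Several members, such as the PACAP and corticotropin-releasing hormone receptors, are well known in brain, and others, such as the follicle-stimulating hormone receptor, are best known from peripheral glands. Methylation of CpG-dense promoters commonly accompanies silencing of the gene, while promoters with few CpGs are often methylated where they are not in use.

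RefSeq promoter sequence shows how far the receptors differ in CpG density. Shown are the 250 bases before the transcription start, 5′ to 3′ on the gene's strand, with each CpG in capitals, for the pair of receptors with the highest brain beta values (Glp2r and Fshr) and the pair with the lowest (Calcrl and Vipr1). The build is GRCm38.p6. The stretches are Fshr chr17:89200676-89200925 (minus strand), Glp2r chr11:67771154-67771403 (minus strand), Calcrl chr2:84425267-84425516 (minus strand) and Vipr1 chr9:121642466-121642715 (plus strand). The position of the CpG that each probe reads is not given in the sources used here, so it may lie outside these stretches.
Glp2r: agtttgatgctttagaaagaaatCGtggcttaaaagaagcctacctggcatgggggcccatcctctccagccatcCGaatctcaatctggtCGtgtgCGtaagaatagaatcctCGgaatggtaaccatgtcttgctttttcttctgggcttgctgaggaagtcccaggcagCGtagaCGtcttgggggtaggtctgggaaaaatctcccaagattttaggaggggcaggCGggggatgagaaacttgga
Fshr: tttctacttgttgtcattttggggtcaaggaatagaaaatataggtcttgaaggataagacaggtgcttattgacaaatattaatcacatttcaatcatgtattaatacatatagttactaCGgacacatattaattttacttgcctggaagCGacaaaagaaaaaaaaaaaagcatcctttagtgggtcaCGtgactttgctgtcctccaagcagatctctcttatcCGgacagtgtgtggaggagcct
Calcrl: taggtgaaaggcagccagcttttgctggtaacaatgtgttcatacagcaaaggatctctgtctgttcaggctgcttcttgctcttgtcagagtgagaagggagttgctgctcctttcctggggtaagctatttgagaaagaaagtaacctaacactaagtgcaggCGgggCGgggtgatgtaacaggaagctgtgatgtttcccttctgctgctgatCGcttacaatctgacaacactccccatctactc
Vipr1: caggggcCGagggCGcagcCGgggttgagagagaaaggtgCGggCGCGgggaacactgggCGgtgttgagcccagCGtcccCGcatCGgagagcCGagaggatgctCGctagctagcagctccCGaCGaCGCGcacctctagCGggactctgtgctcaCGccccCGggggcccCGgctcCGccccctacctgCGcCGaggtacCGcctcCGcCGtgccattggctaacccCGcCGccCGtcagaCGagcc
Counted in these letters, Glp2r held 8 CpGs, Fshr 4, Calcrl 3 and Vipr1 30. Of the 32851 windows in the RefSeq table, 92.1% held at least 1 CpG in the 250 bases before the start, with a median of 6. Fewer CpGs than in Vipr1 were found in 94.1% of them, and fewer than in Calcrl in 29.0%. Both a CpG-poor and a CpG-rich promoter therefore stood among the receptors with the lowest brain beta values.

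Across the table, the Met series set the scale on which each probe has to be read. The median beta value of the 20 receptor probes was 0.128, 0.528, 0.570, 0.613 and 0.817 in the Met arrays from 0 to 100. Over all 382 probes it was 0.131, 0.541, 0.608, 0.667 and 0.820. Receptor probes thus followed much the same course as the table. As a measure of array error, the departure of Met_50 from the midpoint of Met_25 and Met_75 was turned into the SD expected between 2 arrays, which was 0.0326 over the 331 responsive probes and also holds any real bend of the curve. Of 26 cell type markers listed for this work 11 were measured, and they do not check identity, since these are methylation values: Ncam1 stood at 0.0741 (A2B5_mas) and 0.0791 (PSA-NCAM_mas), and Gfap, the astrocyte filament gene, at 0.640 and 0.549.

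In brain, on the beta scale, the receptors held fewer low and more intermediate values than the table as a whole. The median over the 20 was 0.20 in A2B5_mas and 0.168 in PSA-NCAM_mas, beside 0.101 and 0.0970 over all probes. Both brain arrays were low (under 0.2) at 10 of the 20 receptors, where 66.0% of all probes were low in both. Both were intermediate (0.2 to 0.8) at 9 of the 20, beside 25.7% of all probes, and high (over 0.8) at 1, Glp2r, beside 2.88%. These counts describe the array and were not tested, since the probes of an array are not replicates. With limits of 0.3 and 0.7, 5 of the 20 were intermediate in both arrays, beside 15.4% of all probes.

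**Figure D1:**
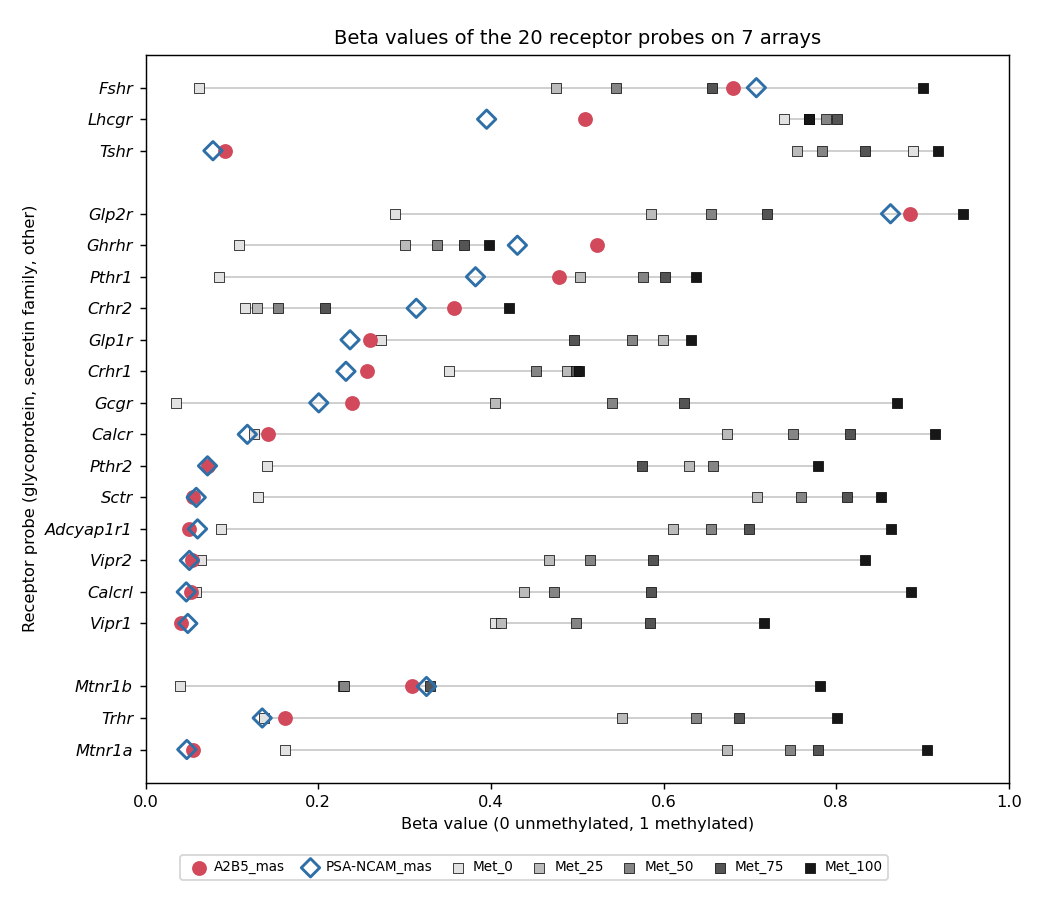
Beta value (horizontal axis, 0 to 1) of each of the 20 receptor probes (rows, grouped as glycoprotein hormone receptors, secretin family and other receptors) on the 7 arrays. Filled circles are A2B5_mas, open diamonds PSA-NCAM_mas, and squares the Met arrays from light (Met_0) to dark (Met_100), 1 array each. The brain values run from 0.0405 at Vipr1 to 0.885 at Glp2r, both in A2B5_mas. Both brain values lie to the left of the Met_0 square at 11 of the 20 receptors (58.1% of all probes), by the most at Tshr.

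By receptor class, the median of the 3 glycoprotein hormone receptors was 0.509 for A2B5_mas and 0.395 for PSA-NCAM_mas. The secretin family had 0.190 and 0.159 (14 probes), and the other receptors 0.161 and 0.135 (3 probes). Every class held both low and intermediate probes, and the classes overlapped: the glycoprotein receptors ran from 0.0925 to 0.680 in A2B5_mas and the secretin family from 0.0405 to 0.885. No order of the classes follows from 3 probes each, and the median of the glycoprotein class is the value of the single probe Lhcgr.

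The glycoprotein hormone receptors gave 3 different patterns. Fshr, the receptor for follicle-stimulating hormone of ovarian granulosa and testicular Sertoli cells, had 0.680 in A2B5_mas and 0.708 in PSA-NCAM_mas, against Met_0 to Met_100 values of 0.0623, 0.476, 0.545, 0.656 and 0.900. Both brain values lay between those of Met_75 and Met_100. Read off its own Met curve, made monotone and joined by straight lines, Fshr stood at title number 77.5 for A2B5_mas and 80.3 for PSA-NCAM_mas. Of all 382 probes, 93.5% had a lower mean over the brain arrays.

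Tshr, the thyrotropin receptor of thyroid follicle cells, was at the other end. It had 0.0925 in A2B5_mas and 0.0780 in PSA-NCAM_mas, against Met_0 to Met_100 values of 0.889, 0.754, 0.783, 0.833 and 0.918. Every Met array exceeded both brain arrays by a wide margin. The brain mean minus Met_0 was -0.803, the lowest such difference of all 382 probes, and its Met_0 value was the 2nd highest of the table. Its slope over the Met series was 0.0553 per 100 title numbers, with an exact two-sided permutation p = 0.550 (adjusted p = 0.560). Since Met_0 lay above Met_25, Met_50 and Met_75, a reading on a Met curve has no clear meaning for this probe. Both brain arrays read 0 by rule, and the summaries on the Met curve scale below include that value.

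Lhcgr, the receptor for luteinizing hormone and chorionic gonadotropin, varied little over the Met series. It had 0.509 in A2B5_mas and 0.395 in PSA-NCAM_mas, against Met_0 to Met_100 values of 0.740, 0.769, 0.788, 0.801 and 0.769. The 5 Met values lie closer together than the brain arrays do, and both brain values lie under all of them. The slope was 0.0362 per 100 title numbers (exact two-sided permutation p = 0.283, adjusted p = 0.296).

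Within the secretin family, the receptors of glucagon-related peptides differed widely. Glp2r, the receptor for the gut growth peptide GLP-2, had 0.885 in A2B5_mas and 0.863 in PSA-NCAM_mas, against Met_0 to Met_100 values of 0.289, 0.586, 0.655, 0.720 and 0.947. Like Fshr it lay between Met_75 and Met_100, and it read 93.2 in A2B5_mas and 90.8 in PSA-NCAM_mas on its curve. Glp1r, the incretin receptor of pancreatic beta cells and of some neurons, had 0.260 and 0.237, against Met_0 to Met_100 values of 0.273, 0.60, 0.563, 0.496 and 0.632. Glp1r was thus just under its Met_0 value on both brain arrays, and its Met values ran down between Met_25 and Met_75. Gcgr, the glucagon receptor of liver, had 0.239 and 0.201, against Met_0 to Met_100 values of 0.0352, 0.405, 0.540, 0.624 and 0.871. Although the brain values of Gcgr and Glp1r are close, Gcgr lay between its Met_0 and Met_25 values, at 13.8 in A2B5_mas and 11.2 in PSA-NCAM_mas, and Glp1r read 0.

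Ghrhr, the receptor through which growth hormone-releasing hormone acts on pituitary somatotrophs, exceeded its whole Met series. It had 0.523 in A2B5_mas and 0.431 in PSA-NCAM_mas, against Met_0 to Met_100 values of 0.108, 0.301, 0.338, 0.369 and 0.397. Both brain arrays lay above Met_100 at 1 of the 20 receptors, Ghrhr, and at 2.88% of all probes. Its beta value in the middle of the scale therefore stood above the array titled 100.

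The corticotropin-releasing hormone receptors, which carry the stress peptides CRH and the urocortins, also differed in where they lay on their Met series. Crhr2 had 0.358 in A2B5_mas and 0.314 in PSA-NCAM_mas, against Met_0 to Met_100 values of 0.115, 0.129, 0.154, 0.208 and 0.421. Crhr1 had 0.257 and 0.232, against Met_0 to Met_100 values of 0.351, 0.489, 0.452, 0.499 and 0.502. The beta values of the 2 receptors are near each other, but Crhr2 read 92.6 and 87.4 on its curve, and Crhr1 lay under its Met_0 value on both arrays.

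The parathyroid hormone receptors were further apart. Pthr1 (now Pth1r), which binds parathyroid hormone in bone and kidney, had 0.478 in A2B5_mas and 0.382 in PSA-NCAM_mas, against Met_0 to Met_100 values of 0.0852, 0.503, 0.577, 0.602 and 0.637. Pthr2 (now Pth2r), a receptor for the brain peptide TIP39, had 0.0720 and 0.0717, against Met_0 to Met_100 values of 0.140, 0.629, 0.657, 0.576 and 0.779. Pthr1 lay between Met_0 and Met_25, at 23.5 in A2B5_mas and 17.8 in PSA-NCAM_mas on its curve, and Pthr2 lay under Met_0 on both brain arrays.

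The remaining secretin-family probes were all low in brain. Vipr1 and Vipr2, receptors for vasoactive intestinal peptide and PACAP, had 0.0405 and 0.0538 in A2B5_mas and 0.0489 and 0.0507 in PSA-NCAM_mas. Adcyap1r1, the PACAP-preferring receptor found on neural progenitors, had 0.0501 in A2B5_mas and 0.0602 in PSA-NCAM_mas. All 3 receptors of this peptide group thus lay low in the table, where 4.71% of all probes had a lower brain mean than Vipr1, 12.8% than Vipr2 and 16.2% than Adcyap1r1. They differed in the controls: Met_0 was 0.405 at Vipr1, 0.0637 at Vipr2 and 0.0873 at Adcyap1r1. At Vipr1 the difference from Met_0 was -0.364 in A2B5_mas and -0.356 in PSA-NCAM_mas.

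Calcrl, which with an accessory protein forms the receptors for CGRP and adrenomedullin, had 0.0529 in A2B5_mas and 0.0471 in PSA-NCAM_mas, against 0.0581 in Met_0. Sctr, the secretin receptor, had 0.0546 and 0.0587, against 0.131. Calcr, the calcitonin receptor of osteoclasts and of several brain nuclei, had 0.141 and 0.118, against 0.126. Calcrl and Calcr were thus within 0.0326 of Met_0 on both brain arrays, and Sctr lay below it. That SD comes from Met_25, Met_50 and Met_75, where these probes read far higher, and none was computed at low values. The Met series of these probes climbed to 0.886 at Calcrl, 0.852 at Sctr and 0.914 at Calcr in Met_100, so low brain values there were measured on probes that can read high.

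Of the other receptors, the melatonin receptors stood apart from each other. Mtnr1a had 0.0552 in A2B5_mas and 0.0478 in PSA-NCAM_mas, against Met_0 to Met_100 values of 0.161, 0.673, 0.747, 0.779 and 0.906. Mtnr1b had 0.308 and 0.325, against Met_0 to Met_100 values of 0.0397, 0.229, 0.230, 0.330 and 0.781. Mtnr1a therefore lay under Met_0, while Mtnr1b lay between Met_50 and Met_75, at 69.7 in A2B5_mas and 74.0 in PSA-NCAM_mas on its curve. Trhr, the receptor for thyrotropin-releasing hormone, had 0.161 and 0.135, against 0.137 in Met_0. It differed from Met_0 by less than 0.0326 on both arrays, an SD that was not computed at low values.

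**Figure D2:**
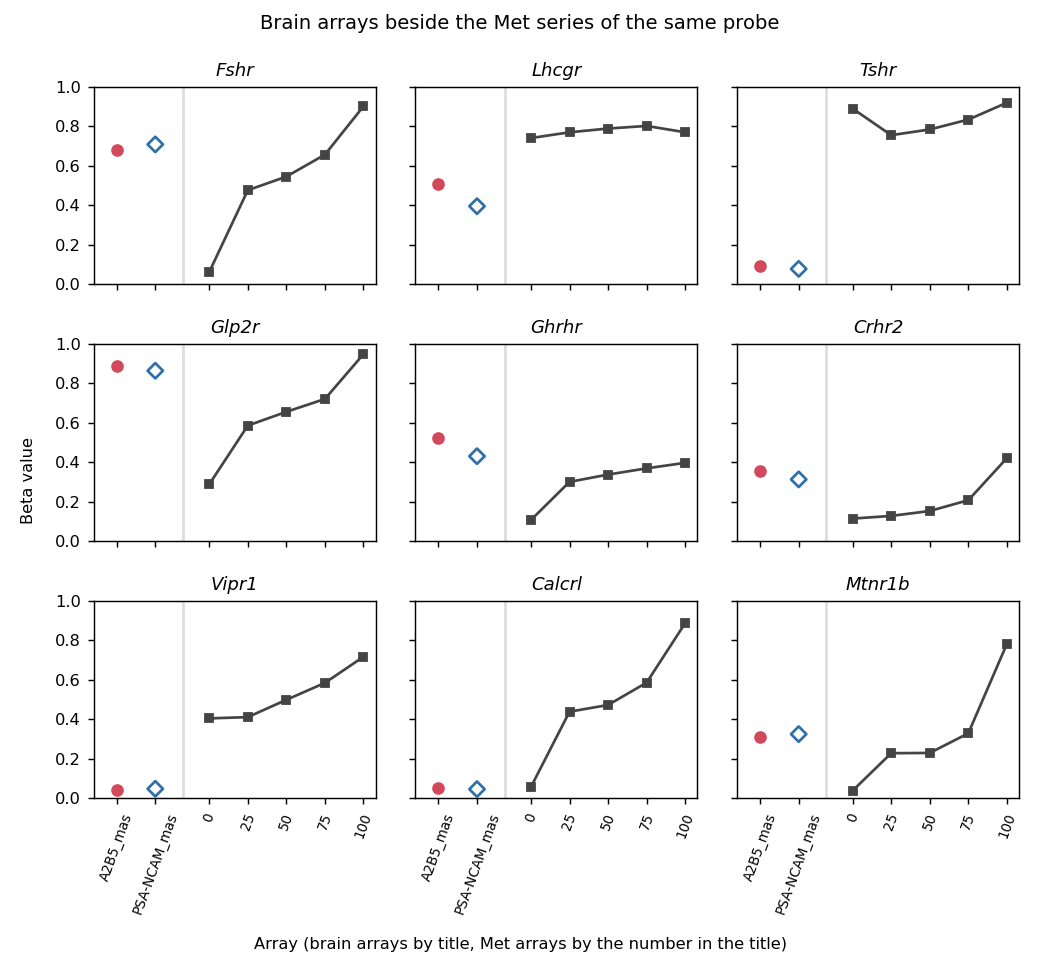
Beta value (vertical axis, 0 to 1) of 9 receptor probes, with A2B5_mas (circle) and PSA-NCAM_mas (diamond) at the left of each panel and the Met arrays by title number (joined squares, 0 to 100) at the right, 1 array per point. The brain points of Ghrhr (0.523 and 0.431) lie above its Met_100 value of 0.397, and those of Fshr and Glp2r between Met_75 and Met_100. Those of Tshr, Lhcgr and Vipr1 lie below the whole series, as do, narrowly, those of Calcrl (0.0529 and 0.0471, against 0.0581 in Met_0).

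The Met series was the only comparison with enough arrays for a test, and asks whether a probe follows the title number. In an exact two-sided permutation test of the slope over the 120 orders of 5 arrays, 15 of the 20 receptor probes rose, each with p = 0.0167, the smallest these arrays allow, and an adjusted p = 0.0206 (Benjamini-Hochberg over 382 probes). The same call was made at 87.7% of all probes, and 0 of the 20 fell, beside 1.57% of all probes. The 15 are the receptors that were higher at each of the 4 Met steps, and any such series gets this p-value whatever the size of its steps. The p-values therefore reflect the order of the values against the title number and measure no spread between preparations. Whether the 5 arrays are independent preparations is not stated. The 5 that did not pass were Tshr, Lhcgr, Glp1r, Crhr1 and Pthr2, with unadjusted exact permutation p-values from 0.10 to 0.550. Pthr2, at 0.10, had a single inverted step, with 0.657 in Met_50 and 0.576 in Met_75.

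Responsive probes, defined by a rise of at least 0.3 between Met_0 and Met_100, were 16 of the 20, beside 86.6% of all probes. The exceptions were Lhcgr and Tshr, both above 0.7 in Met_0, Crhr1, whose Met_100 value was 0.151 above Met_0, and Ghrhr, at 0.289 just under the limit. Crhr2, at 0.306, and Vipr1, at 0.312, were just over it.

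Set against Met_0, both brain arrays were at least 0.2 higher at 5 of the 20 receptors, beside 14.9% of all probes. These were Fshr, Glp2r, Ghrhr, Pthr1 and Mtnr1b, with Fshr the furthest, 0.618 above Met_0 in A2B5_mas and 0.645 in PSA-NCAM_mas. Crhr2 met the limit in A2B5_mas (0.242 above) and missed it in PSA-NCAM_mas (0.198 above), as did Gcgr (0.204 and 0.165). Both arrays were at least 0.2 lower at Tshr, Vipr1 and Lhcgr, 3 of the 20, beside 6.81% of all probes. By any size, both brain arrays lay under Met_0 at 11 of the 20 (55.0%), near the 58.1% of all probes. At Tshr, Lhcgr and Vipr1 the distance rests on Met_0 values of 0.889, 0.740 and 0.405, and 11.5% of all probes had 0.4 or more in Met_0.

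A2B5_mas and PSA-NCAM_mas set a glial against a neuronal progenitor marker. At the limit of 0.2, 0 of the 20 receptors were higher in A2B5_mas (0.0% of all probes) and 0 were lower (0.0%). At a size of 0.05, 3 of the 20 receptors were higher in A2B5_mas, beside 12.0% of all probes, and 0 were lower, beside 0.785%. The 3 were Lhcgr, at 0.509 in A2B5_mas and 0.395 in PSA-NCAM_mas (difference 0.113), Pthr1, at 0.478 and 0.382 (0.0962), and Ghrhr, at 0.523 and 0.431 (0.0923). By absolute difference Lhcgr ranked 4th, Pthr1 9th and Ghrhr 12th of the 382 probes. These calls depended on the scaling. Neither Lhcgr nor Ghrhr was responsive, and on its own Met curve each read the same on both arrays, 0 by rule at Lhcgr and 100 at Ghrhr. Pthr1 read 23.5 in A2B5_mas and 17.8 in PSA-NCAM_mas. After quantile normalization of the brain arrays the differences were 0.0461 at Lhcgr, 0.0507 at Pthr1 and 0.0330 at Ghrhr, so 1 of the 20 receptors was higher by 0.05, beside 2.09% of all probes, and 1, Fshr, was lower, beside 3.14%.

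The difference was largest at middle levels. Over all 194 probes with a brain mean under 0.1 its median was 0.000215, and over the 11 probes from 0.8 to 1, Glp2r among them, it was 0.0289. Of all 62 probes with a brain mean from 0.4 to 0.8, 57 had the larger value in A2B5_mas, by a median of 0.0593. Lhcgr, Pthr1 and Ghrhr fall in this range, as does Fshr, which ran the other way with a difference of -0.0276 and was 1 of 5 probes of that range that were lower in A2B5_mas. Mtnr1b, with a difference of -0.0170, was also lower in A2B5_mas. Both differences were smaller than the SD of 0.0326, which belongs to the scale as deposited. After quantile normalization they were -0.0814 for Fshr and -0.0452 for Mtnr1b, a scale for which no SD was computed.

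By any size, 15 of the 20 receptors were higher in A2B5_mas and 5 lower, beside 65.2% higher over all probes. The 5 lower ones were Fshr, Mtnr1b, Adcyap1r1, Vipr1 and Sctr. The receptors below 0.1 in brain differed by no more than 0.0145 (Tshr), and the median difference over the 20 was 0.0184, beside 0.00429 over all probes. The direction depended on the scaling at 3 receptors: Glp2r turned lower in A2B5_mas after quantile normalization, and Pthr2 and Vipr2 turned lower after subtraction of the median difference. On the Met curves 6 were higher, 2 lower and 12 equal at the end of their curve, so the count of 15 belongs to the beta scale. The shares over all probes were not computed on the Met curves.

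**Figure D3:**
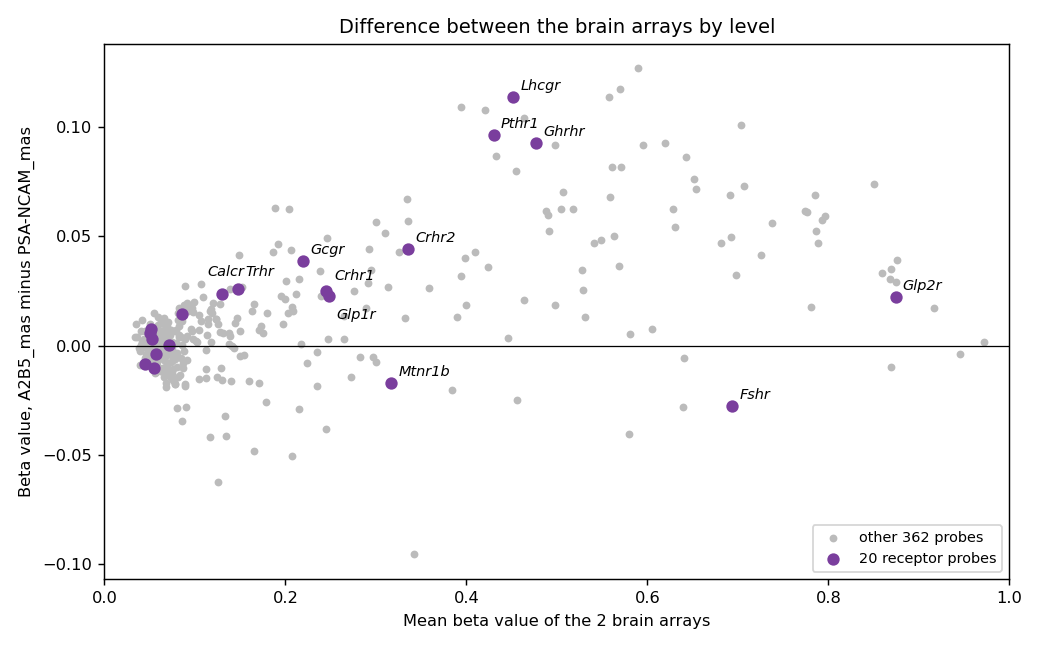
Difference in beta value, A2B5_mas minus PSA-NCAM_mas (vertical axis), by the mean beta value of both brain arrays (horizontal axis) for the 20 receptor probes (purple, labelled above a mean of 0.11) and the other 362 probes (grey). Lhcgr, Pthr1 and Ghrhr lie between 0.0923 and 0.113 among other probes of middle level, and Fshr and Mtnr1b lie below 0.

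RefSeq promoter windows of 300 bases, 250 before to 50 after the start, were found for 16 of the 20 receptors, and Tshr, Ghrhr, Sctr and Trhr had no match. For Calcr and Pthr1, which had more than 1 window, the one with the most CpGs was taken. The dinucleotide CG was counted, which reads the same on both strands, and 94.6% of all 32851 windows held at least 1. The receptor windows had a median of 17 CpGs and those of the 268 other matched probes 18.

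Brain beta values were loosely and inversely related to the CpG count of the window, and the receptors did not follow it by class. Across the 16 receptors Pearson's r was -0.250 (Spearman's rho -0.358) in A2B5_mas and -0.286 (-0.270) in PSA-NCAM_mas, and across the 268 other probes -0.329 (-0.375) and -0.307 (-0.337). These describe probes that share arrays and are not replicates. The 4 receptors with under 10 CpGs had medians of 0.215 (A2B5_mas) and 0.193 (PSA-NCAM_mas), the 6 with 10 to 19 had 0.182 and 0.193, and the 6 with 20 or more had 0.248 and 0.216. Among the other probes, the same classes had 0.351 and 0.317 (76 probes), 0.0803 and 0.0807 (66) and 0.0722 and 0.0762 (126). Low values in A2B5_mas, found at 66.2% of all probes, were present at 2 of the 6 receptors with 20 or more CpGs, Vipr1 (35 CpGs) and Calcr (29), and at 100 of the 126. Crhr1 (31 CpGs), Glp1r (29), Gcgr (34) and Pthr1 (27) made up the rest, all intermediate. Calcr and Pthr1 also have windows with 4 and 5 CpGs, and by the window with the fewest CpGs 1 of 4 receptors with 20 or more CpGs was low. Glp1r and Crhr1 were nonetheless under their Met_0 values, so their middle beta values were not above the control titled 0.

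At the CpG-poor end, Fshr and Crhr2, with 6 and 5 CpGs, were intermediate in both brain arrays, and Calcrl and Pthr2, with 7 and 6, were low in both. The sequences of Fshr and Calcrl printed above show this contrast at a like CpG count. Glp2r, the receptor with the highest brain beta values, had 12 CpGs in its window.

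**Figure D4:**
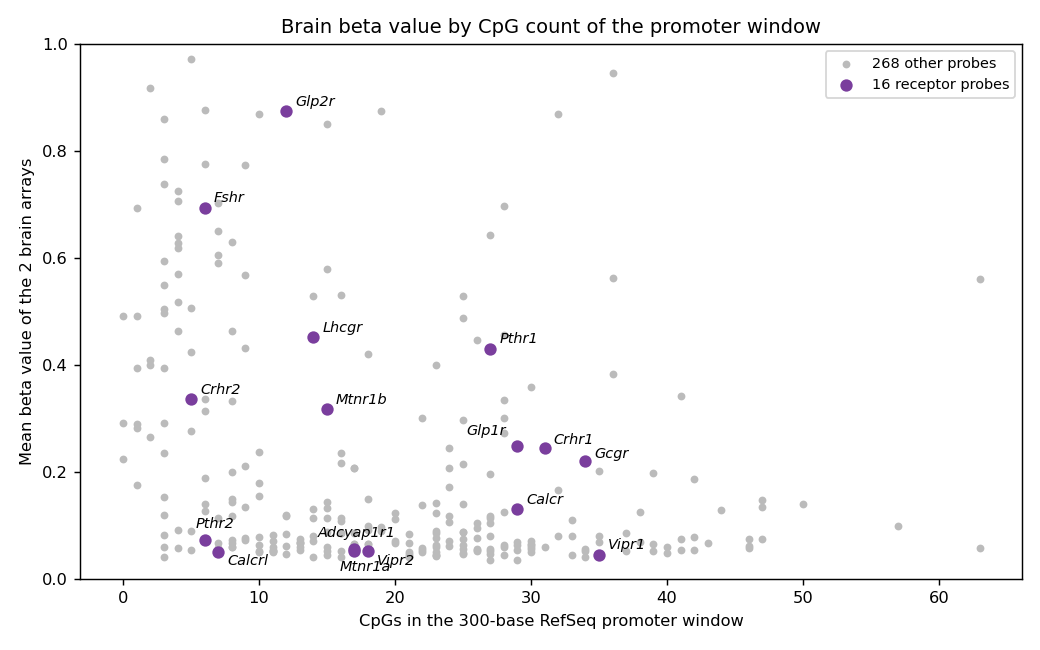
Mean beta value of both brain arrays (vertical axis) by the number of CpGs in the 300-base RefSeq promoter window (horizontal axis) for 16 receptor probes (purple) and 268 other probes (grey). Vipr1 combines 35 CpGs with a low value, Calcrl has 7 CpGs and a low value, and Fshr and Glp2r lie high with 6 and 12 CpGs.

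The probes most like the leading receptors were found by the mean absolute difference in beta value over the 7 arrays. For Glp2r this was Drd3, a dopamine receptor gene (mean difference 0.0502), for Fshr Tectb, a gene of the tectorial membrane of the ear (0.0440), and for Ghrhr Gje1, a connexin symbol that has named more than one gene (0.0640). For Tshr it was Ptger4, a prostaglandin E receptor gene (0.0749), with 0.0976 in A2B5_mas, 0.0790 in PSA-NCAM_mas and 0.735 in Met_0. For Vipr1 it was Id4 (0.0289) and for Lhcgr Gria3, an AMPA receptor subunit gene (0.0387). The pattern of Tshr, high in every Met array and low in brain, was thus shared by at least 1 other probe.

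Other genes of these pathways were taken from a list written for this work. Of 20 hormone genes, 2 were measured, and both were intermediate. Fshb, the beta subunit of follicle-stimulating hormone, had 0.765 (A2B5_mas) and 0.710 (PSA-NCAM_mas), and Lhb, that of luteinizing hormone, had 0.628 and 0.511. At Fshb, as at its receptor, both brain arrays lay more than 0.2 above Met_0 (0.151), beside 14.9% of all probes at least 0.2 above. At Lhb, as at its receptor, Met_0 was 0.740, and 11.5% of all probes had 0.4 or more there. Both brain arrays lay under Met_0 at both genes, as at 58.1% of all probes. A2B5_mas exceeded PSA-NCAM_mas by 0.117 at Lhb and 0.113 at Lhcgr, and by at least 0.05 at 12.0% of all probes. Against the other Met arrays the 2 genes differed. The brain values of Lhb lay between Met_25 (0.50) and Met_75 (0.657), while those of Lhcgr lay under all its Met values. No link between hormone and receptor genes follows from these 2 genes. Of 25 genes of cyclic AMP signalling 1 was measured, the adenylyl cyclase gene Adcy9, with 0.208 and 0.165. None of 7 receptor partner genes was found.

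Hormone receptors of other families were represented by 15 probes of 14 genes, out of 23 listed. Their median was 0.0769 in A2B5_mas and 0.0811 in PSA-NCAM_mas, and 13 of the 15 were low in both arrays, beside 66.0% of all probes. In the Met series 13 of the 15 rose (exact permutation test, adjusted p-values of 0.0206 to 0.0373), near the 87.7% of all probes. A fall was called at 0 of the 15, beside 1.57% of all probes. The exceptions in brain were the vasopressin receptor genes Avpr1b, with 0.396 and 0.383, and Avpr2, with 0.410 and 0.378. Examples of the low ones were Oxtr, the oxytocin receptor gene, with 0.0716 and 0.0624, and Thrb, a thyroid hormone receptor gene, with 0.0856 and 0.0855. Where 13 of these 15 probes were low, 10 of the 20 endocrine receptors were, with the 66.0% of all probes between them. This difference was not tested and rests on which genes were listed. Outside the list, and chosen after their values were seen, Trhr2, a second thyrotropin-releasing hormone receptor gene, had 0.726 (A2B5_mas) and 0.657 (PSA-NCAM_mas), and Rxfp2, a receptor gene for insulin-like peptide 3, had 0.689 and 0.613.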

How the data were processed

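The authors deposited 1 table of 382 probes on 7 arrays, read here as methylation fractions (beta values) because every value lay between 0.0282 and 0.972. Phenol extraction preceded a standard Illumina labelling, per the labels' protocols. For software, background correction, normalization and build, the methods were not given in the sources used here. A scaling between arrays could move beta values. No intensities were used. The array's precision is limited by 1 array per title.

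Receptors were matched by the symbol in the probe ID. The members, lists and limits were chosen with earlier results of these data known. All 20 receptors are named, with the most similar probe for the 3 highest in brain and the 3 furthest below Met_0. Slopes on the title number were tested by exact permutation and adjusted over 382 probes. Met curves were made monotone by isotonic regression, and values beyond their ends read 0 or 100. Alternatives covered limits, scale, quantile normalization and single Met arrays. Older symbols were matched through RefSeq synonyms (GRCm38.p6). The slope test and the curve reading were tested on simulated straight-line series, with brain values inside rising curves. Bent series and brain values beyond the end of a curve were not simulated. Python 3.11.15, numpy 2.4.6, pandas 2.3.3, scikit-learn 1.9.0, scipy 1.17.1 and matplotlib 3.10.9 were used.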

Additional observations from a re-analysis of the deposited data

How the results depend on the processing

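Of 46 alternative values of 15 results, 29 stayed within a factor of 1.5 for counts, 0.0326 for beta values and slopes, or 0.1 for correlations. The sign changed in 0 of them, but only the median slope and the correlations could change sign, since counts, beta values and curve readings cannot be negative. Several unchanged counts were 0 at the limit of 0.2, which 0.0% of all probes met on the beta scale. The direction between the brain arrays at single receptors, which turned at Glp2r, Pthr2 and Vipr2, was not among these results. The 15 rising receptor probes were also 15 on the log2(beta / (1 - beta)) scale. The median slope of the receptor probes, 0.583 per 100 title numbers, ranged from 0.317 (without Met_0) to 0.648 (without Met_25). With 4 Met arrays the smallest exact permutation p is 0.0833, so no trend could pass. The count of receptors higher in A2B5_mas, 0, was 1 with a limit of 0.1 and 3 with 0.05, and 0 under quantile normalization, subtraction of the median difference and the Met curve scale. The 5 receptors higher in brain than in Met_0 became 3 at a size of 0.3. The 9 intermediate receptors became 5 with limits of 0.3 and 0.7 and 1 on the Met curve scale, where 3 rather than 1 were high. For the Met curve scale and the sizes 0.1 and 0.3, the share over all probes was not computed. Whether those shifts are particular to the receptors is therefore not known. The median brain beta value of the glycoprotein class, 0.452, was 0.410 as a mean, 0.694 over responsive probes (Fshr alone) and 0 on the Met curve scale. That of the secretin family, 0.175, was 0.235, 0.101 and 0, and that of the other receptors, 0.148, was 0.00728 on the Met curve scale, where values under Met_0 read 0 by construction. The causes of the remaining changes were not tested. No paired analysis was possible because each title has 1 array. The window with the fewest CpGs in place of the most, and quantile normalization with a limit of 0.05, were tried after seeing the data. The second of these gave 1 receptor higher and 1 lower in A2B5_mas, against 0 and 0 at 0.2.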
